A study of Mus musculus with 8 samples.

Results

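The genes described here are 44 named genes of the DNA damage response and of DNA repair, taken from a list of symbols, and all 44 were among the 24860 genes measured. The rule used no measured value, but the list was drawn up with earlier results of these data known. The genes were grouped by role into damage sensing and checkpoint signalling, homologous recombination, the Fanconi pathway, non-homologous end joining, mismatch repair, nucleotide excision repair, base excision and single-strand break repair, and a last group of RPA, PCNA and translesion polymerases. RNA came from MII oocytes of C57BL/6 mice at postnatal day 42. One group was wild type (WT, 4 libraries) and the other carried the genotype Esrp1-/- (Esrp1_KO, 4 libraries). ESRP1 is an RNA-binding protein that regulates splicing. The labels do not say which part of Esrp1 was deleted or in which cells, and they name no further allele or treatment. Each library was made by Smart-seq2, which copies whole polyadenylated RNAs without marking their strand, from a tube of 15 lysed oocytes. Whether 1 tube held oocytes of 1 animal is not given, so p-values measure the spread between these tubes, which may in part be technical.

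Cells read DNA damage with kinases such as ATM and ATR, which halt the cell cycle through CHEK1 and CHEK2, and then repair it by pathways that differ with the lesion. Broken ends are joined directly by the Ku and ligase IV machinery or copied from an intact template by homologous recombination. Altered bases are cut out by base excision repair, bulky lesions by nucleotide excision repair and mispaired bases by mismatch repair. An MII oocyte is arrested in the second meiotic metaphase and makes almost no new RNA, so the transcripts it holds are maternal stores, from which the early embryo also draws.

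Values are FPKM, the reads of a gene scaled to its length and to the total reads of its library. They are relative levels, so less RNA per oocyte and fewer intact oocytes in a tube cannot be told apart. The FPKM implied library totals of 25018182 to 28932109 reads in WT and 24910433 to 32337966 in Esrp1_KO. Esrp1 itself stood at 17.5 ± 1.42 FPKM (SD, n = 4) in WT and 3.30 ± 0.68 (SD, n = 4) in Esrp1_KO, with no overlap between the groups, so its RNA was reduced and not absent in the libraries labelled Esrp1-/-. All 10 oocyte markers listed were above 1 FPKM, with a summed level of 5379 to 5617 FPKM in WT and 4707 to 6357 in Esrp1_KO. Single markers differed without overlap: Dazl (809 to 973 FPKM in WT, 258 to 426 in Esrp1_KO) and Mos were lower in Esrp1_KO, and Zp1, Zp2, Zp3 (62.2 to 70.9 in WT, 109.7 to 182 in Esrp1_KO) and Ooep higher. Of 13 markers of the embryo after genome activation, Gata3 alone had a mean of at least 1 FPKM, at 11.8 to 15.8 in WT and 3.03 to 3.24 in Esrp1_KO. Of 13 cumulus and granulosa cell markers measured, Cyp19a1 and Kitl had a mean of at least 1 FPKM and the other 11 lay below, with none of their means above 0.959. Fshr, Cyp11a1, Ptx3 and Tnfaip6, which mark those cells or their expansion, were at 0 in all 4 WT libraries. In Esrp1_KO their highest values were 0.0168, 0.0501, 0.0231 and 0.235 FPKM, in that order. Ptgs2 was higher in Esrp1_KO without overlap (0.0233 to 0.175 FPKM in WT, 0.198 to 0.51 in Esrp1_KO). Cyp19a1, Kitl and Nr5a2 were lower without overlap, and the rest of the list overlapped. The sum of the list was 9.38 to 12.3 FPKM in WT and 4.31 to 5.86 in Esrp1_KO. A list of 8 leukocyte markers summed to 0.367 to 1.59 FPKM in WT and 0.643 to 9.14 in Esrp1_KO, with 1 marker, Cd68, at a mean of at least 1 FPKM. The highest sum was that of Esrp1_KO replicate 3 alone, which held most of the Lyz2, and the other Esrp1_KO libraries summed to 0.643 to 1.29. The part of these markers in the repair gene results was not tested. WT replicate 1 listed 20047 genes above 0, against 15201 to 18100 in the other 7 libraries, and it is named below where it decides a value.

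Short promoter stretches are shown first because many repair genes share the letters bound by E2F factors, known regulators of replication and repair genes. RefSeq (GRCm38.p6) windows of 300 bases, from 250 before to 50 after a transcript start, were given for 37 of the 44 genes, in 43 windows. The letters GCGGGAA, or TTCCCGC on the opposite strand, stood in 12 of the 43 windows (27.9%), and in 1511 of the 32851 windows of all genes (4.6%). The windows of all genes were not matched to the repair genes for expression or base content. The 3 genes below that were lower in Esrp1_KO and held a match come first, followed by the 3 with the highest levels among those with a match whose change did not pass the test. Capitals mark the match, and each stretch is read 5′ to 3′ on the strand of the gene.
Chek1 (chr9:36726609-36726638, minus strand): cagcatgacgcaagcaggttttgGCGGGAA
Rad51c (chr11:87404941-87404970, minus strand): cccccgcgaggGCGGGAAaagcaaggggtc
Rnf168 (chr16:32277414-32277443, plus strand): tagcaggctagGCGGGAAcgcagacgcagc
Brca2 (chr5:150522442-150522471, plus strand): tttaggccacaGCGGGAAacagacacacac
Msh6 (chr17:87975055-87975084, plus strand): tcctcccgactTTCCCGCcagcggcggccg
Xrcc6 (chr15:82016312-82016341, plus strand): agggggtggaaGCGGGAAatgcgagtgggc

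The match began 44 bases after the start in Chek1 and 17 bases after it in Msh6. It began before the start in the others, by 5 bases in Rad51c, 36 in Rnf168, 168 in Brca2 and 46 in Xrcc6. Of the genes with a window, 3 of the 6 lower in Esrp1_KO, 0 of the 4 higher and 7 of the 19 tested genes that did not pass held a match. The CCAAT box, searched as CCAAT or ATTGG on either strand, stood in 21 of the 43 windows (48.8%) and in 37.4% of all windows. A match describes letters only and shows no binding.

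Repair genes spanned a wide range of levels in these oocytes. By the mean over the 8 libraries, 2 genes lay above 100 FPKM, 13 between 10 and 100, 20 between 1 and 10, and 9 below 1 FPKM. Chek1, the kinase that holds cells with damaged or unreplicated DNA before mitosis, was the highest of the 44 at 217 FPKM, and Rpa3, the smallest subunit of the complex that coats single-stranded DNA, followed at 176. Ddb1 (87.9 FPKM), Rif1 (53.2) and Rad50 (43.1) came next in the order. At the other end Ercc1, which with ERCC4 forms the nuclease that cuts 5′ of a bulky lesion, stood at 0.0701 ± 0.0583 FPKM (SD, n = 4) in WT and 0.061 ± 0.0315 (SD, n = 4) in Esrp1_KO, on 0 to 10 reads a library. The 9 genes under 1 FPKM were Lig3, Polb, Rnf8, Chek2, Ercc4, Fanca, Apex1, Mlh3 and Ercc1. They were not tested, and their values stand with their pathways.

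**Figure D1:**
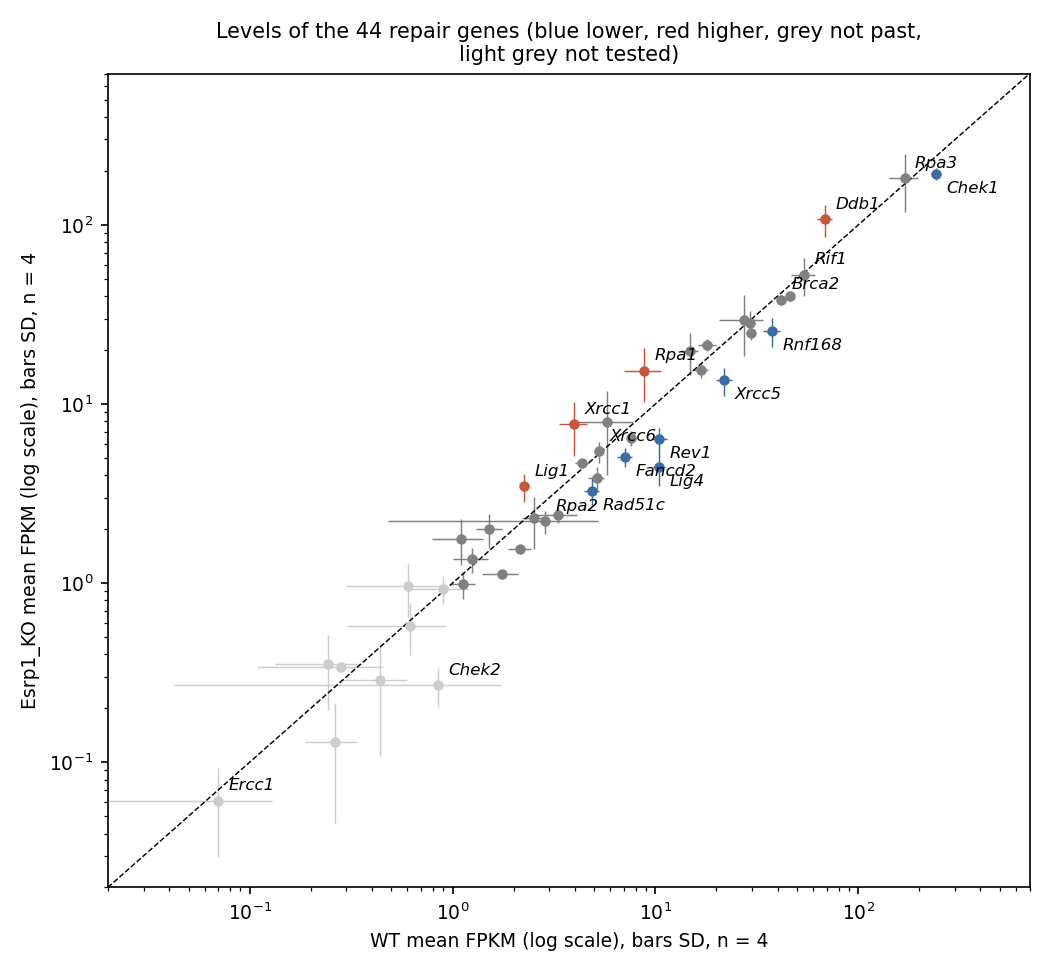
Mean FPKM of each of the 44 repair genes in Esrp1_KO (vertical, log scale) against WT (horizontal, log scale), with bars for the SD over 4 libraries and a dashed line of equality. Lower bars that would reach 0 or less are shortened, in the WT bar of Chek2, and the lower WT bar of Ercc1 runs off the axis. Lig4, Xrcc5 and Rev1 lie below the line and Ddb1, Rpa1, Xrcc1 and Lig1 above it.

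Of the 44 genes, 35 averaged 1 FPKM or more and were tested in a limma fit over all 8021 such genes, on log2(FPKM + 1), with a Benjamini-Hochberg adjusted p of at most 0.05 as the threshold. Lower in Esrp1_KO were 7 of them (20%), Lig4, Xrcc5, Rev1, Rnf168, Rad51c, Fancd2 and Chek1, against 23.1% of all genes tested. Higher were 4 (11.4%), Xrcc1, Rpa1, Ddb1 and Lig1, against 13.9% of all genes tested. In either direction, 11 of 35 passed (31.4%) and 24 did not, with a background of 36.9%, so the share of repair genes called was near that of all genes. The WT and Esrp1_KO libraries did not overlap for 16 of the 35 (45.7%), against 36.8% of all genes tested. Of these, 13 were lower (37.1%, against 23.3% of all genes tested) and 3 higher (8.57%, against 13.5%). Among 121 other repair genes tested, described below, the groups did not overlap for 44 (36.4%), with 29 lower and 15 higher. The median log2 fold change of the 35 was -0.11, with quartiles of -0.33 and 0.16, and that of all genes tested was -0.06, with quartiles of -0.44 and 0.29. The split between directions moved with the scaling: 6 were higher and 5 lower with median-ratio scaling, 5 and 5 with quantile normalization, and 3 and 9 with a common total of nuclear genes. Without the filter on low levels 7 passed, and Chek1 (adjusted p = 0.0611), Rad51c (0.0509), Xrcc1 (0.0517) and Rpa1 (0.108) did not. Genes with a mean just above 1 FPKM were Mdc1, Pms2, Atm and Parp1, and Lig3 lay just below it.

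**Figure D2:**
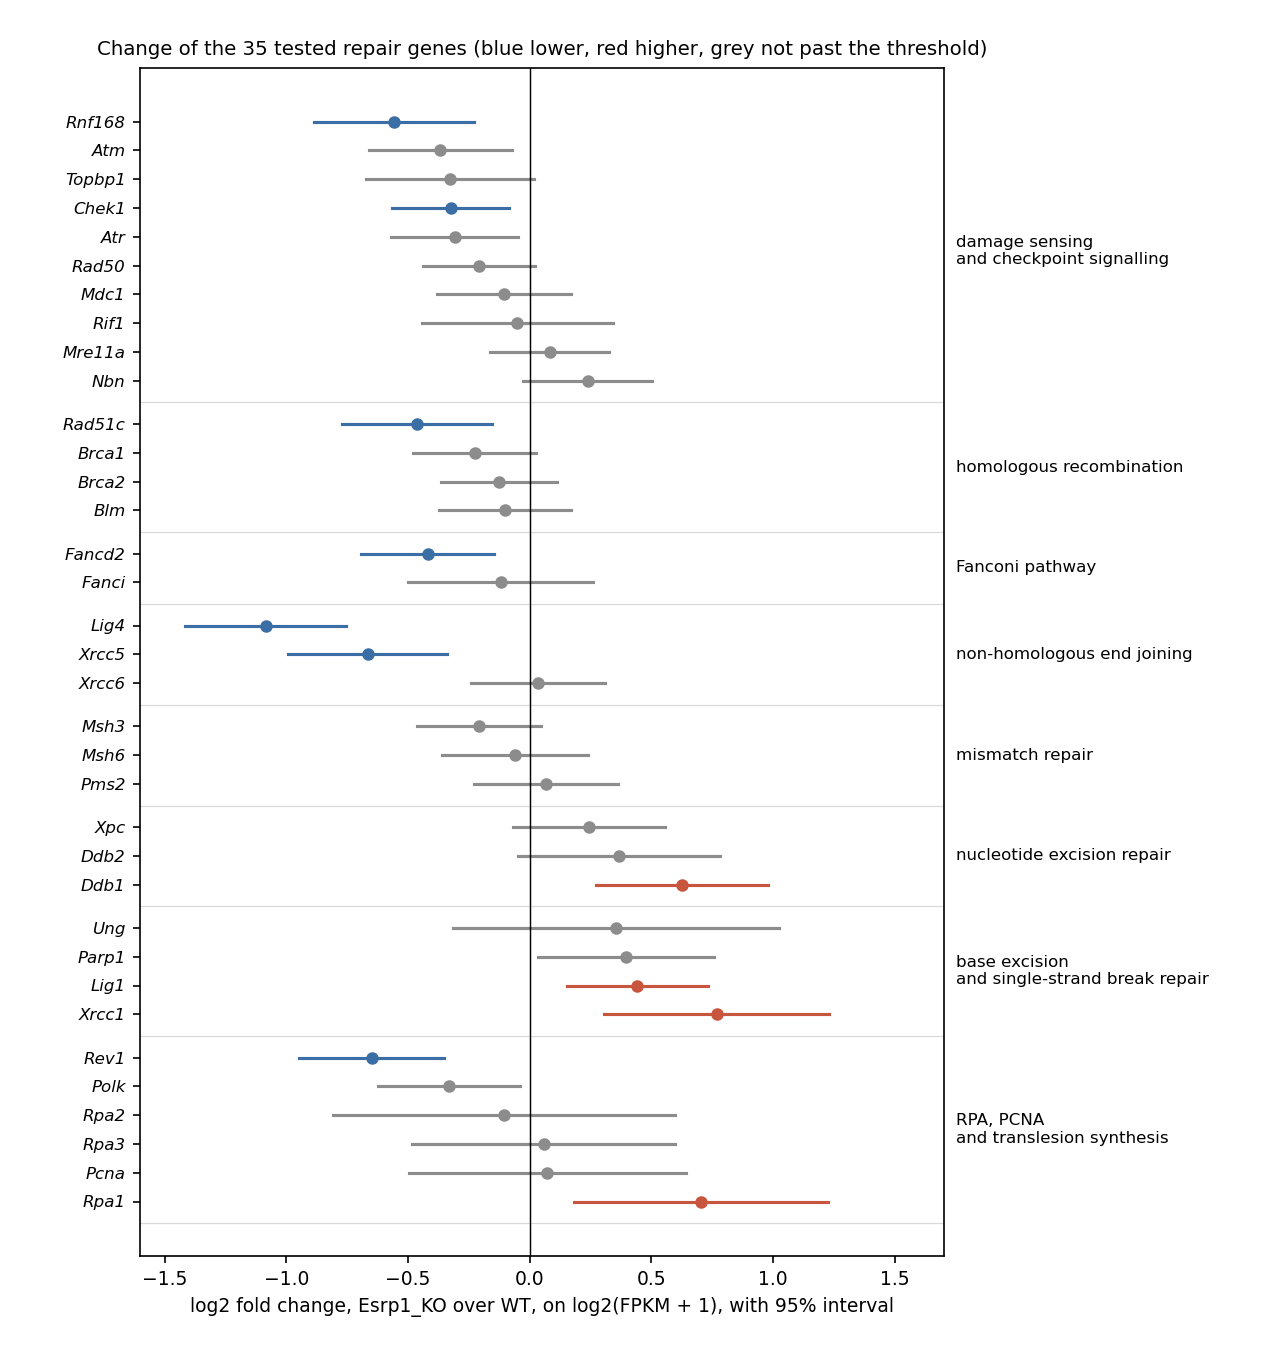
Log2 fold change of Esrp1_KO over WT on the log2(FPKM + 1) scale (horizontal) for the 35 tested repair genes, grouped by pathway, with bars for the 95% interval of the limma fit over 4 libraries a group. The 7 genes lower in Esrp1_KO are blue, the 4 higher red, and the 24 that did not pass grey; the lowest value is that of Lig4, -1.09.

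In damage sensing and checkpoint signalling 2 of 10 tested genes fell (20%, against 23.1% of all genes tested) and none rose (against 13.9%). Rnf168 (ENSMUSG00000014074, chr16:32277459-32301434) encodes the ubiquitin ligase that marks histones around a break and so calls in later repair factors. It stood at 34.0, 41.1, 40.2 and 34.8 FPKM in WT replicates 1 to 4 and at 20.8, 31.8, 25.4 and 23.6 in Esrp1_KO replicates 1 to 4. Every Esrp1_KO library lay below every WT library, the nearest being Esrp1_KO replicate 2. The log2 fold change was -0.56 ± 0.15 (SE), with an adjusted p of 0.0148 in the limma fit, on 2984 to 5045 reads a library.

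Chek1 (ENSMUSG00000032113, chr9:36708482-36727065) had the highest mean of the 44 genes in both groups. Its levels were 244, 261, 228 and 235 FPKM in WT and 179.9, 179.8, 208 and 204 in Esrp1_KO. The groups did not overlap, but the gap between the lowest WT and the highest Esrp1_KO library was narrower than the range within either group. With a log2 fold change of -0.33 ± 0.11 (SE) and a limma adjusted p of 0.0389, it was the called gene nearest to the threshold together with Rpa1. It missed the threshold without any 1 library other than Esrp1_KO replicate 3, with adjusted p of 0.0561 to 0.0955 in those 7 fits, and with median-ratio scaling (adjusted p = 0.158).

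ATM and ATR, the kinases that start the response to broken and to single-stranded DNA, had low transcript levels that did not pass the test. Atm stood at 1.90, 1.86, 1.24 and 2.003 FPKM in WT and at 1.11, 1.15, 1.19 and 1.03 in Esrp1_KO (limma adjusted p = 0.0514). Atr stood at 2.15, 2.50, 1.83 and 2.13 FPKM in WT and at 1.49, 1.58, 1.44 and 1.65 in Esrp1_KO (limma adjusted p = 0.0634). In both genes the groups did not overlap. Each passed with a common total of nuclear genes (adjusted p = 0.0393 for Atm and 0.0423 for Atr) and with voom on recovered reads (0.0295 and 0.0222). Atm also passed without a trend in the variance (adjusted p = 0.046) and without WT replicate 3 (0.0207). TOPBP1 switches ATR on, and Topbp1 had 3.31 ± 0.792 FPKM in WT and 2.40 ± 0.244 in Esrp1_KO (SD, n = 4 each, limma adjusted p = 0.125). It passed without WT replicate 2, its lowest WT library (adjusted p = 0.0368).

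MRE11, RAD50 and NBN form the MRN complex, which binds broken ends and recruits ATM. Rad50 stood at 47.2, 44.7, 45.1 and 48.0 FPKM in WT and at 37.6, 43.2, 39.4 and 39.5 in Esrp1_KO. Its groups did not overlap, yet the log2 fold change of -0.21 ± 0.10 (SE) missed the threshold (limma adjusted p = 0.142). Nbn had 18.0 ± 1.80 FPKM in WT and 21.4 ± 1.56 in Esrp1_KO (SD, n = 4 each), with a log2 fold change of 0.24 and an adjusted p of 0.144, and it passed with median-ratio scaling (adjusted p = 0.0496). Mre11a, the nuclease, was the lowest of the trio at 4.35 ± 0.335 FPKM in WT and 4.66 ± 0.225 in Esrp1_KO (SD, n = 4 each, adjusted p = 0.591).

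The remaining sensing genes did not pass or were not tested. RIF1 protects broken ends and times replication, and Rif1 stood at 44.4, 57.5, 60.9 and 52.6 FPKM in WT and at 41.5, 70.1, 52.4 and 46.4 in Esrp1_KO. These ranges overlapped almost fully (log2 fold change -0.05, 95% interval -0.44 to 0.34), and the sign turned with median-ratio scaling. Mdc1, the scaffold on marked chromatin, had 1.13 ± 0.152 FPKM in WT and 0.983 ± 0.167 in Esrp1_KO (SD, n = 4 each, adjusted p = 0.536). Rnf8, which acts just before Rnf168, had 0.617 ± 0.316 FPKM in WT and 0.579 ± 0.182 in Esrp1_KO (SD, n = 4 each), and it shares 13.2% of its exons with Gm28043 on the same strand. Chek2, the checkpoint kinase that removes oocytes with unrepaired breaks, was uneven: 2.07, 0.932, 0.0947 and 0.288 FPKM in WT, on 164, 70, 8 and 25 reads, and 0.206, 0.294, 0.349 and 0.224 in Esrp1_KO, on 19 to 30 reads. The WT mean therefore rested on replicates 1 and 2, and the other WT libraries lay at the Esrp1_KO level or below it.

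Homologous recombination genes had 1 of 4 tested lower (25%, against 23.1% of all genes tested) and none higher (against 13.9%). Rad51c (ENSMUSG00000007646, chr11:87376645-87404954) encodes a protein that helps to build and steady the filament used in strand exchange. It stood at 4.23, 5.13, 4.99 and 5.05 FPKM in WT and at 2.53, 3.31, 4.06 and 3.20 in Esrp1_KO. The lowest WT library, replicate 1, lay just above the highest Esrp1_KO library, replicate 3. The log2 fold change was -0.46 ± 0.14 (SE) and the limma adjusted p 0.0252. It missed the threshold without WT replicate 2 (adjusted p = 0.0562), 3 (0.0597) or 4 (0.0656) and without Esrp1_KO replicate 4 (0.0575), and with median-ratio scaling (0.0588) or quantile normalization (0.0726).

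BRCA1, which favours resection of broken ends, and BRCA2, which acts at the resected DNA, were among the well-expressed repair genes and did not pass. Brca2 stood at 40.1, 39.7, 45.2 and 41.7 FPKM in WT and at 37.2, 41.3, 37.9 and 36.2 in Esrp1_KO, with 1 Esrp1_KO library inside the WT range (log2 fold change -0.12, 95% interval -0.36 to 0.11, limma adjusted p = 0.391). Brca1 ranged from 28.3 to 31.5 FPKM in WT and from 21.96 to 26.9 in Esrp1_KO, so its groups did not overlap, with a log2 fold change of -0.23 ± 0.11 (SE) and an adjusted p of 0.143. Blm, the helicase that dissolves joined molecules, had 16.7 ± 1.51 FPKM in WT and 15.5 ± 1.48 in Esrp1_KO (SD, n = 4 each, adjusted p = 0.551).

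The Fanconi pathway unhooks DNA strands that are crosslinked to each other, and FANCD2 with FANCI forms the clamp at its centre. Fancd2 (ENSMUSG00000034023, chr6:113531682-113597017) stood at 7.54, 6.38, 6.78 and 7.65 FPKM in WT and at 5.82, 5.04, 4.36 and 5.004 in Esrp1_KO. The groups did not overlap, and the log2 fold change was -0.42 ± 0.12 (SE, limma adjusted p = 0.023). The call was lost without WT replicate 1 (adjusted p = 0.0692) or 4 (0.0687), without Esrp1_KO replicate 3 (0.0642) or 4 (0.053), and with quantile normalization (0.0566). Fanci, its partner, had 2.53 ± 0.339 FPKM in WT and 2.30 ± 0.742 in Esrp1_KO (SD, n = 4 each, adjusted p = 0.619), and 16.0% of its exons lie under the antisense gene Polg, whose reads the unstranded libraries cannot separate. Fanca, of the core that ubiquitinates the clamp, lay at 0.281 ± 0.172 FPKM in WT and 0.342 ± 0.0158 in Esrp1_KO (SD, n = 4 each), with 10.5% of its exons under the antisense gene Zfp276.

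End joining held the largest change among the 35 tested repair genes. In it 2 of 3 tested genes fell (66.7%, against 23.1% of all genes tested) and none rose (against 13.9%). Of 5 other listed end joining genes tested, none passed, and their median log2 fold change was 0.28. Lig4 (ENSMUSG00000049717, chr8:9969049-9977686) encodes the ligase that seals broken ends. It stood at 11.2, 9.63, 10.8 and 10.04 FPKM in WT and at 5.04, 5.45, 3.32 and 3.99 in Esrp1_KO. Every Esrp1_KO library lay far below the WT range, on 495 to 847 reads against 1253 to 1587. The means were 10.4 ± 0.736 and 4.45 ± 0.971 (SD, n = 4 each), a ratio of 0.426, and the log2 fold change was -1.09 ± 0.15 (SE, limma adjusted p = 0.000464). Lig4 was the only one of the 11 called genes that passed in all of the alternative fits.

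Xrcc5 (ENSMUSG00000026187, chr1:72307421-72394952) encodes Ku80, which with Ku70, the product of Xrcc6, rings a broken end. Xrcc5 stood at 20.5, 24.8, 21.9 and 20.3 FPKM in WT and at 10.6, 15.9, 14.995 and 12.6 in Esrp1_KO. The groups did not overlap, and the log2 fold change was -0.67 ± 0.15 (SE, limma adjusted p = 0.00597). Xrcc6 stood at 5.38, 4.91, 5.29 and 5.46 FPKM in WT and at 4.35, 5.79, 5.73 and 5.87 in Esrp1_KO. Apart from Esrp1_KO replicate 1, which was the lowest of all 8, the Esrp1_KO libraries lay slightly above WT (log2 fold change 0.03, 95% interval -0.24 to 0.31, adjusted p = 0.859), and the sign turned with a common total of nuclear genes.

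**Figure D3:**
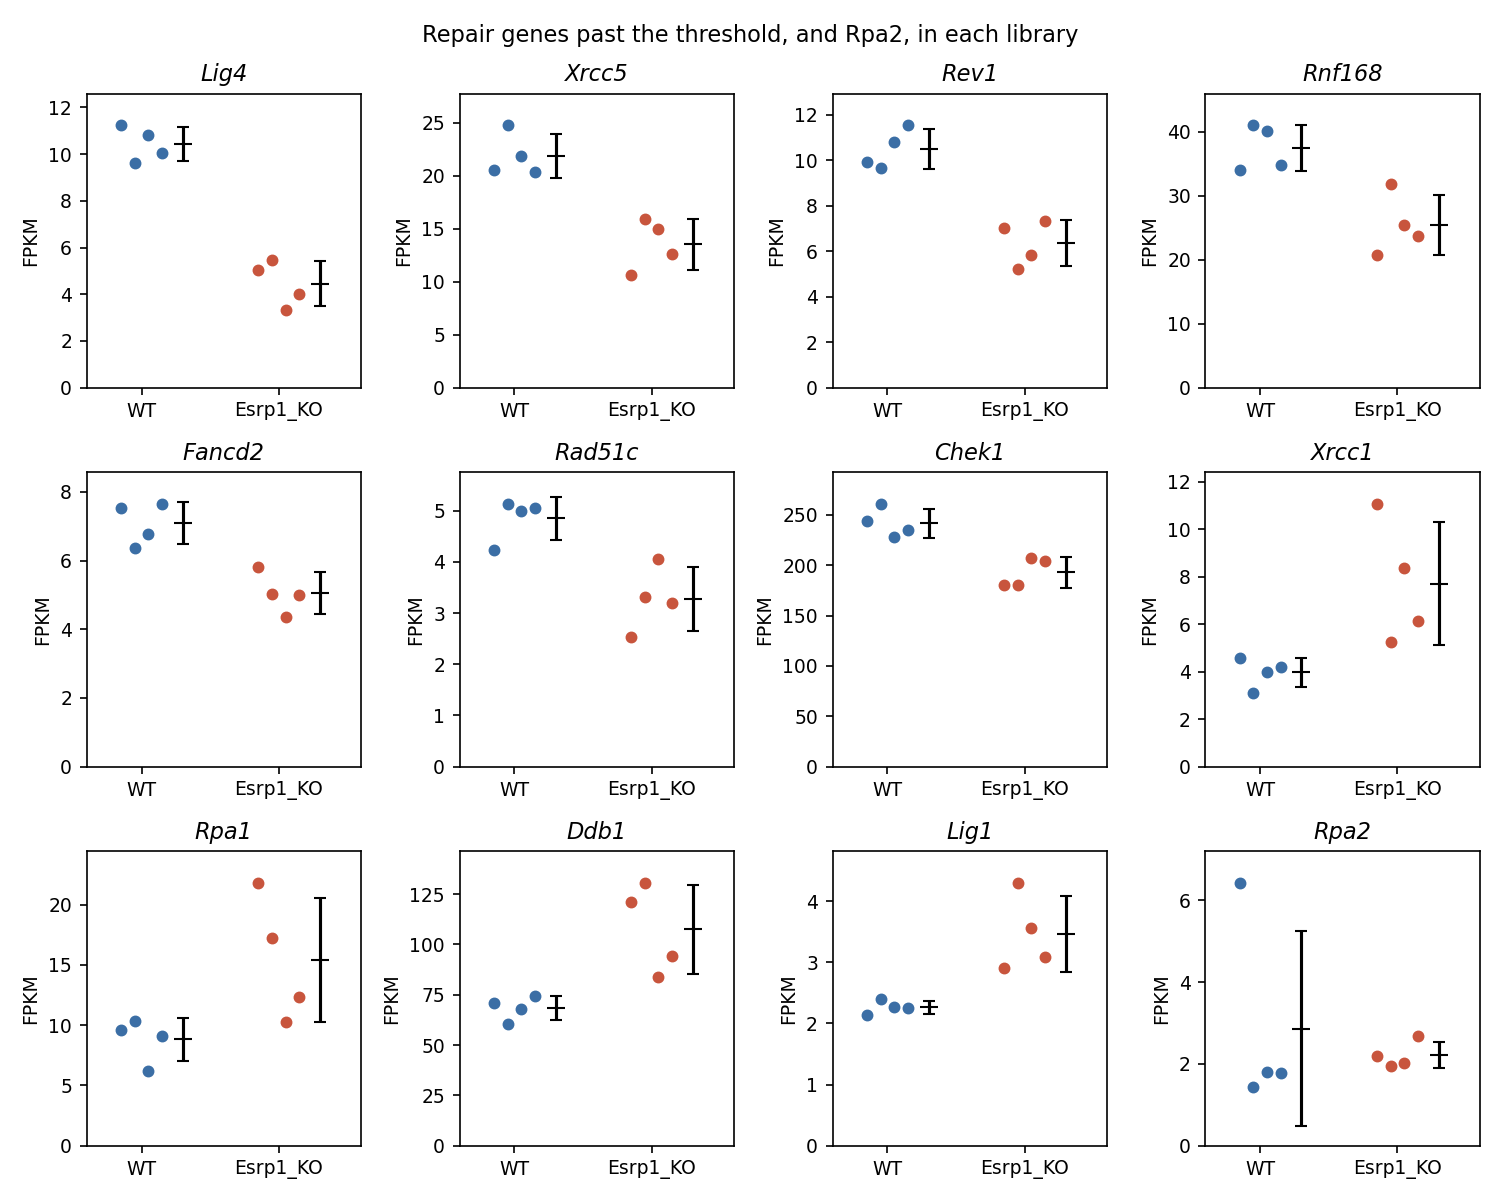
FPKM in each library (points, from left to right replicates 1 to 4) of the 11 repair genes past the threshold and of Rpa2, with the mean and SD of the 4 WT (blue) and 4 Esrp1_KO (red) libraries beside them. Lig4 falls from 9.63 to 11.2 FPKM in WT to 3.32 to 5.45 in Esrp1_KO, while in Rpa2 a single WT library at 6.42 FPKM sets the WT mean.

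None of the 3 mismatch repair genes tested passed, where 36.9% of all genes tested did. MSH6 and MSH3 serve in alternative complexes that find single mispairs and small loops. Msh6 stood at 30.4, 26.9, 30.7 and 29.5 FPKM in WT and at 30.4, 33.8, 24.5 and 24.7 in Esrp1_KO, with Esrp1_KO libraries on both sides of the WT range (log2 fold change -0.06, 95% interval -0.36 to 0.24), and its sign turned with median-ratio scaling and with quantile normalization. Msh3 ranged from 7.20 to 8.10 FPKM in WT and from 5.61 to 7.09 in Esrp1_KO, without overlap (adjusted p = 0.179). Pms2, which nicks the strand to be replaced, had 1.25 ± 0.249 FPKM in WT and 1.36 ± 0.212 in Esrp1_KO (SD, n = 4 each, adjusted p = 0.718). Mlh3, whose product acts at meiotic crossovers, lay at 0.264 ± 0.0762 FPKM in WT and 0.13 ± 0.0839 in Esrp1_KO (SD, n = 4 each).

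In nucleotide excision repair 1 of 3 tested genes rose (33.3%, against 13.9% of all genes tested) and none fell (against 23.1%). Of 17 other listed genes of this pathway tested, 1 was higher and 3 lower, with a median log2 fold change of -0.06. Ddb1 (ENSMUSG00000024740, chr19:10605327-10629819) encodes the adaptor of the CUL4 ubiquitin ligase, which with DDB2 finds ultraviolet lesions and which serves many other substrates, also in oocytes. It stood at 70.8, 60.5, 67.8 and 74.4 FPKM in WT and at 121, 130.5, 83.9 and 94.1 in Esrp1_KO. All Esrp1_KO libraries lay above the WT range, with replicates 1 and 2 well above replicates 3 and 4. The log2 fold change was 0.63 ± 0.16 (SE, limma adjusted p = 0.0118). Ddb2, which has 23.8% of its exons under the antisense gene Acp2, had 14.7 ± 1.55 FPKM in WT and 19.7 ± 5.22 in Esrp1_KO (SD, n = 4 each, adjusted p = 0.15). It passed without Esrp1_KO replicate 2 (adjusted p = 0.0389). Xpc, which opens the DNA at a lesion, had 1.52 ± 0.223 FPKM in WT and 1.995 ± 0.425 in Esrp1_KO (SD, n = 4 each, adjusted p = 0.201). Ercc4, the catalytic partner of Ercc1, lay at 0.438 ± 0.16 FPKM in WT and 0.287 ± 0.179 in Esrp1_KO (SD, n = 4 each).

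Base excision and single-strand break repair had 2 of 4 tested genes higher (50%, against 13.9% of all genes tested) and none lower (against 23.1%). The 12 other listed genes of this pathway tested held 2 higher and 2 lower, with a median log2 fold change of -0.10. Xrcc1 (ENSMUSG00000051768, chr7:24546289-24573440) encodes the scaffold that holds the enzymes of single-strand break repair together. It stood at 4.58, 3.12, 3.99 and 4.21 FPKM in WT and at 11.1, 5.24, 8.35 and 6.16 in Esrp1_KO. The groups did not overlap, and the Esrp1_KO libraries spread more widely, with replicate 1 the highest and replicate 2 the lowest. The log2 fold change was 0.77 ± 0.21 (SE, limma adjusted p = 0.0159), and Xrcc1 passed with each library left out in turn.

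Lig1 (ENSMUSG00000056394, chr7:13277283-13311433), the ligase of replication and of long-patch base excision repair, stood at 2.13, 2.40, 2.27 and 2.25 FPKM in WT and at 2.91, 4.30, 3.56 and 3.08 in Esrp1_KO. All Esrp1_KO libraries lay above WT, with a log2 fold change of 0.44 ± 0.13 (SE, limma adjusted p = 0.023) on 240 to 457 reads. The call was lost without WT replicate 1 (adjusted p = 0.0617) or 4 (0.0556) and without Esrp1_KO replicate 3 (0.0559). PARP1 senses strand breaks, and Parp1 stood at 1.55, 0.876, 1.04 and 0.94 FPKM in WT and at 1.501, 2.52, 1.602 and 1.46 in Esrp1_KO (adjusted p = 0.083). It passed with median-ratio scaling (adjusted p = 0.0406), with quantile normalization (0.0177) and without WT replicate 1 (0.0474). Ung, which removes uracil, had 5.80 ± 1.98 FPKM in WT and 7.93 ± 3.94 in Esrp1_KO (SD, n = 4 each, adjusted p = 0.387).

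Under 1 FPKM in this pathway were Lig3, Polb and Apex1. Lig3, the ligase bound by XRCC1, had 0.898 ± 0.301 FPKM in WT and 0.928 ± 0.165 in Esrp1_KO (SD, n = 4 each), with 25.1% of its exons under the antisense gene Rffl. Polb, which fills the gap left by a removed base, had 0.604 ± 0.304 FPKM in WT and 0.959 ± 0.321 in Esrp1_KO (SD, n = 4 each), and its groups overlapped. Apex1, which cuts at a site that has lost its base, had 0.242 ± 0.11 FPKM in WT and 0.355 ± 0.16 in Esrp1_KO (SD, n = 4 each). That level is uncertain, since 61.7% of its exons lie under the antisense gene Pip4p1.

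RPA coats single-stranded DNA in every pathway, and of its 3 subunit genes only Rpa1 passed the test. Rpa1 (ENSMUSG00000000751, chr11:75298166-75348324), the largest subunit, stood at 9.58, 10.3, 6.23 and 9.13 FPKM in WT and at 21.8, 17.2, 10.2 and 12.3 in Esrp1_KO. The groups touched, since WT replicate 2 lay just above Esrp1_KO replicate 3, and Rpa1 was the only called gene with such an overlap. The log2 fold change was 0.71 ± 0.23 (SE), with a limma adjusted p of 0.0387 and an exact two-sided permutation p of 0.0571, the smallest possible being 0.0286. It missed the threshold without WT replicate 1 (adjusted p = 0.0594), 3 (0.104) or 4 (0.0695), without Esrp1_KO replicate 1 (0.0796) or 2 (0.0868), and with a common total of nuclear genes (0.0564).

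Rpa2 showed how far 1 library can set a mean. It stood at 6.42, 1.44, 1.80 and 1.78 FPKM in WT and at 2.19, 1.96, 2.03 and 2.68 in Esrp1_KO. WT replicate 1 was the highest of all 8 and the other WT libraries were the lowest of all 8. The log2 fold change was -0.11 (95% interval -0.81 to 0.60, limma adjusted p = 0.82), and without WT replicate 1 it was 0.26 (adjusted p = 0.194). WT replicate 1 also had the highest Chek2 level and the most genes above 0, and its part in these values beyond the refit was not tested.

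Rpa3, at 160.4, 192, 191 and 133 FPKM in WT and 120.3, 262, 207 and 140.3 in Esrp1_KO, varied more by replicate number than by genotype. In both groups replicates 2 and 3 were the high libraries and replicates 1 and 4 the low ones, and the log2 fold change was 0.06 (95% interval -0.48 to 0.60). Pcna, the sliding clamp of replication and repair synthesis, followed the same order, with 23.3, 35.7, 28.8 and 20.9 FPKM in WT and 18.8, 44.4, 29.9 and 24.7 in Esrp1_KO. The labels name no batch for these numbers. Of the 50-base stretches of Pcna, 19.1% also stand in other genes, most in Pcna-ps2, so its level is uncertain. For Rpa3 the share is 9.48%, most in Gm6195, so its level is uncertain too. All 11 called genes kept their direction within replicates 1 and 4 alone and within replicates 2 and 3 alone. That had to be so, since Rpa1 was higher in Esrp1_KO in all 4 same-numbered pairs and the groups of the others did not overlap. It is therefore no separate support. Of the 35 tested, 4 passed with replicates 1 and 4 alone, namely Lig4, Xrcc5, Rnf168 and Ddb2, and 2, Lig4 and Rev1, with replicates 2 and 3 alone.

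Translesion polymerases copy past damaged bases. Rev1 (ENSMUSG00000026082, chr1:38052786-38129801), the scaffold that recruits the others, stood at 9.93, 9.63, 10.8 and 11.5 FPKM in WT and at 7.01, 5.23, 5.83 and 7.34 in Esrp1_KO. The groups did not overlap, with a log2 fold change of -0.65 ± 0.13 (SE, limma adjusted p = 0.00423). Of its exons 26.6% lie under the antisense gene Eif5b, so some of these reads may belong to that gene. Polk, the polymerase that passes bulky adducts, ranged from 4.43 to 5.48 FPKM in WT and from 3.09 to 4.39 in Esrp1_KO, without overlap, and missed the threshold (log2 fold change -0.33 ± 0.13, SE, adjusted p = 0.0714).

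Ratios within a library between genes of 1 complex do not depend on how libraries are scaled to each other. They were computed for 10 pairs, chosen with the changes above known, and compared by exact two-sided permutation tests. The ratio of Xrcc5 to Xrcc6 was 3.82, 5.05, 4.13 and 3.72 in WT and 2.45, 2.75, 2.62 and 2.14 in Esrp1_KO. All Esrp1_KO libraries lay below WT for this ratio of the Ku subunits (means 4.18 ± 0.603 and 2.49 ± 0.262, SD, n = 4 each). In the MRN complex the ratio of Rad50 to Mre11a was 10.7 ± 0.494 in WT and 8.59 ± 0.614 in Esrp1_KO, and that of Nbn to Rad50 was 0.389 ± 0.0281 in WT and 0.539 ± 0.0663 in Esrp1_KO (SD, n = 4 each), again without overlap. Each of these 3 ratios reached the smallest exact permutation p of 0.0286, which adjusted over the 10 pairs is 0.0952, and none of the 10 passed after adjustment. No smaller p exists for 4 against 4 libraries, so a ratio could have passed only if more of the 10 pairs had reached it. The other 7 ratios overlapped between groups, with exact permutation p from 0.171 to 0.886. These tests did not use the replicate numbers. Between libraries of the same number, the ratio of Rpa1 to Rpa3 was higher in Esrp1_KO in 4 of 4 pairs (0.0598 and 0.181, 0.0538 and 0.0656, 0.0326 and 0.0494, 0.0686 and 0.088 in WT and Esrp1_KO). Its exact permutation p was 0.2, and the labels name no batch or pairing for these numbers. The other 6 overlapping ratios were higher in Esrp1_KO in 1 to 3 of 4 pairs. Fancd2 to Fanci was 2.82 ± 0.24 in WT and 2.32 ± 0.558 in Esrp1_KO, and Ddb1 to Ddb2 was 4.67 ± 0.616 in WT and 5.82 ± 2.39 in Esrp1_KO (SD, n = 4 each).

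**Figure D4:**
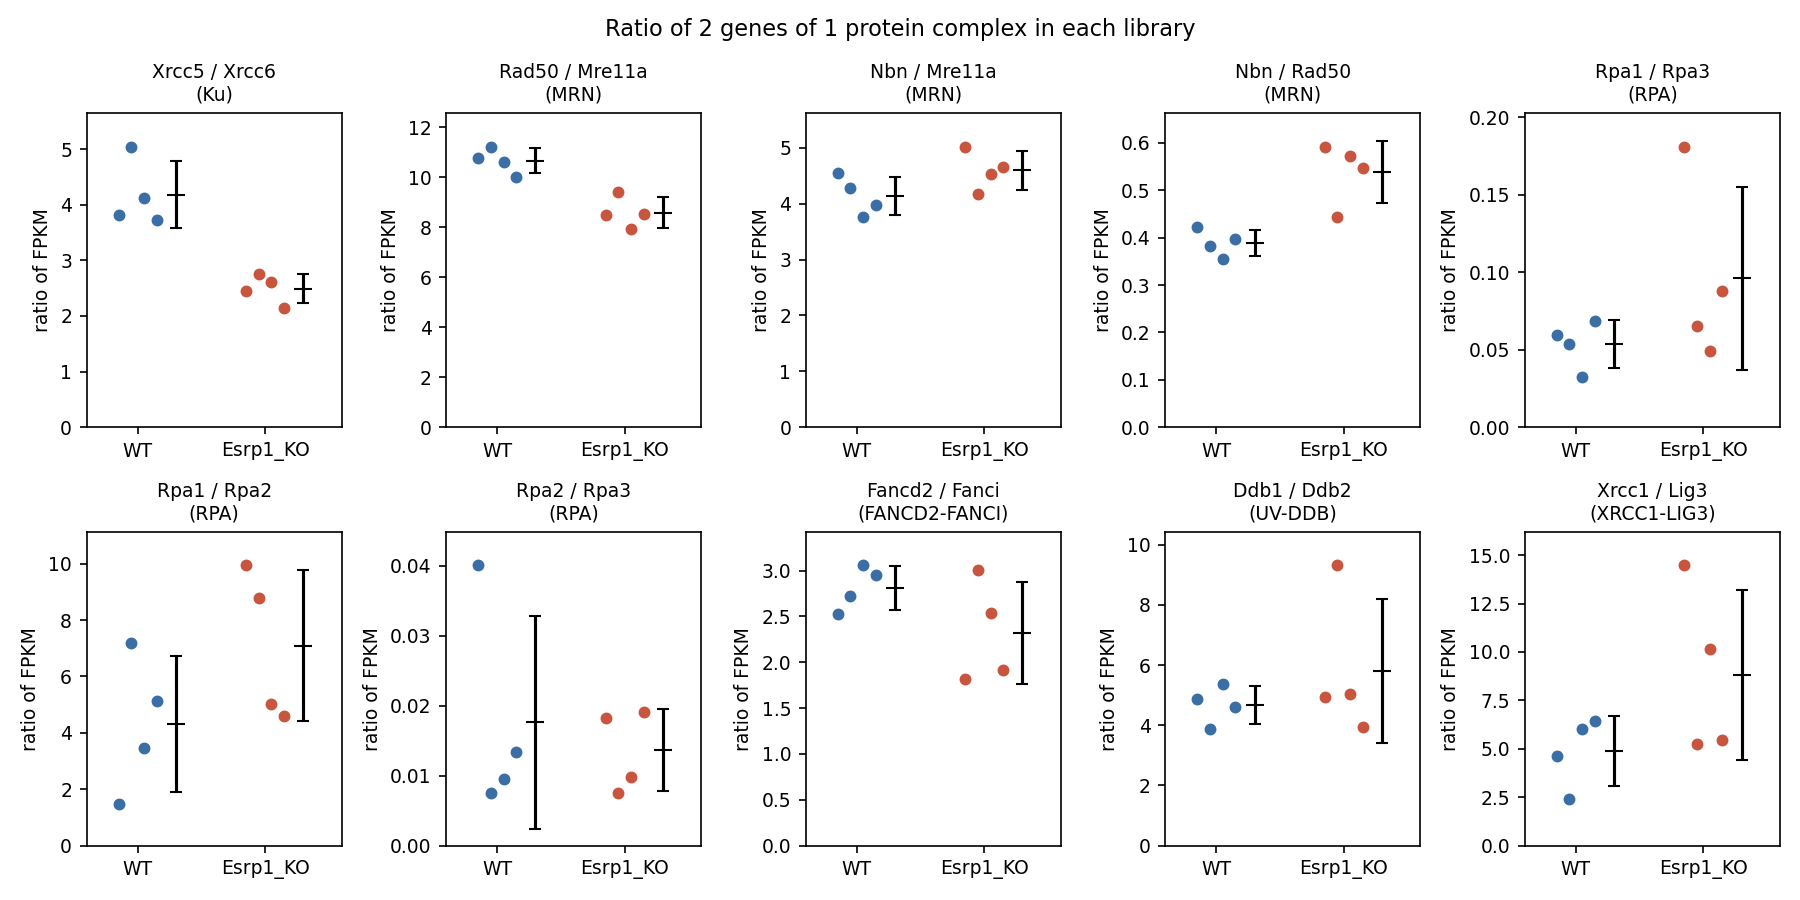
Ratio of the FPKM of 2 genes of 1 protein complex in each library (points, from left to right replicates 1 to 4), with the mean and SD over 4 WT (blue) and 4 Esrp1_KO (red) libraries. The ratio of Xrcc5 to Xrcc6 lies between 3.72 and 5.05 in WT and between 2.14 and 2.75 in Esrp1_KO, and 7 of the 10 ratios overlap between the groups.

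The same pathways hold further genes, and 164 of them were listed, of which 163 were among the genes measured and 121 reached 1 FPKM. Of these 121, 13 were higher in Esrp1_KO (10.7%, against 13.9% of all genes tested) and 24 lower (19.8%, against 23.1%). In either direction that is 30.6%, against 36.9% of all genes tested, and the median log2 fold change of the 121 was -0.09. In end joining none of 5 tested genes passed in the limma fit, beside the 2 of 3 lower among the genes above. In homologous recombination 2 of 27 were higher and 3 lower.

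**Figure D5:**
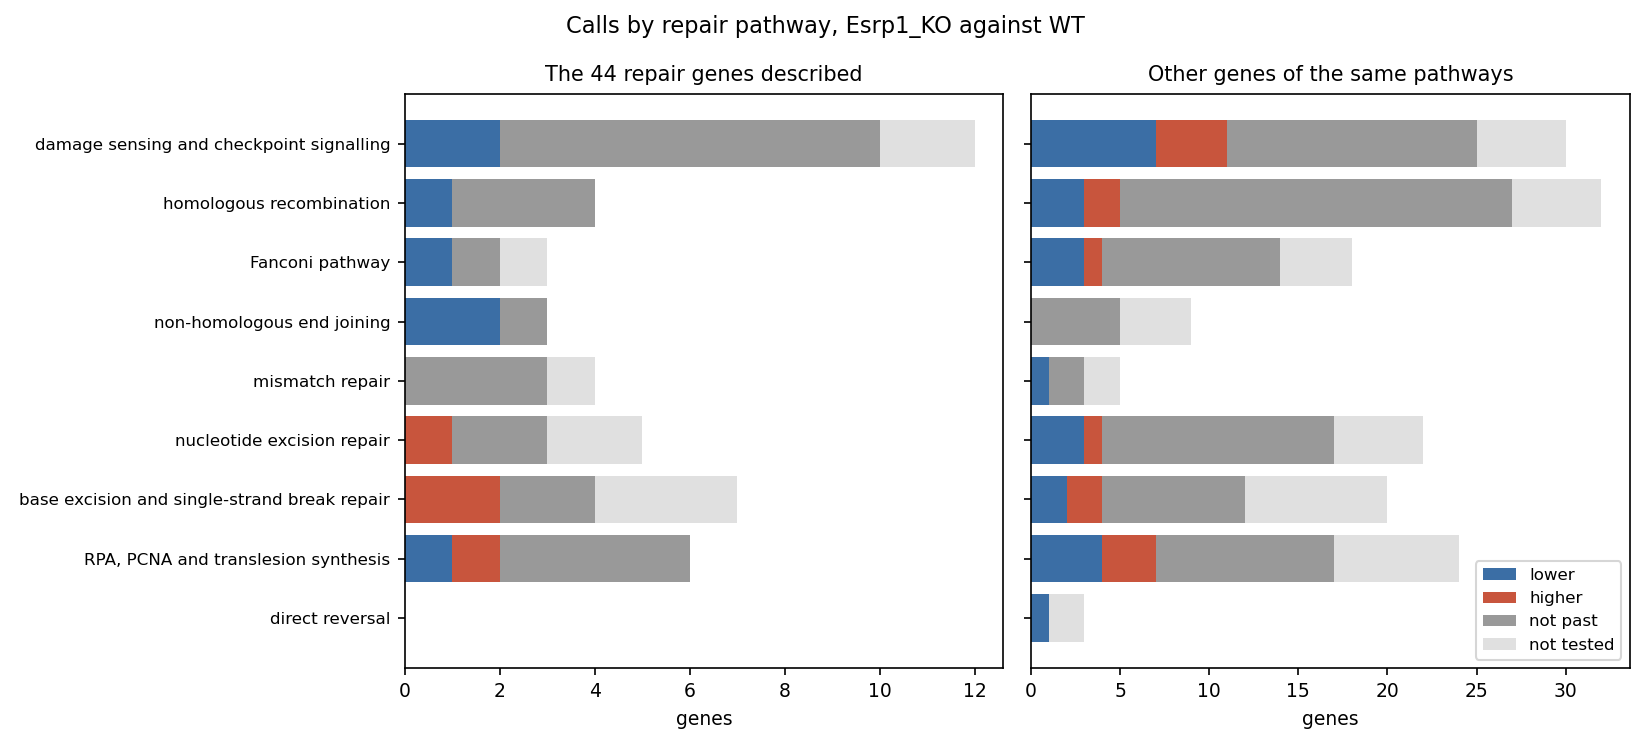
Number of genes (horizontal) lower, higher, not past the threshold and not tested in each repair pathway, for the 44 genes described (left) and 163 other genes of the same pathways (right). Among the 44, lower genes lie in sensing, recombination, Fanconi and end joining, higher genes in nucleotide and base excision, and both in the RPA and translesion group. Among the other genes, both directions occur in sensing, recombination, Fanconi, nucleotide excision, base excision and the RPA and translesion group.

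In sensing and checkpoint signalling 4 of 25 other genes were higher and 7 lower. Trp53bp1, whose product steers breaks towards end joining downstream of RNF168, rose from 14.1 ± 1.996 FPKM in WT to 77.3 ± 30.3 in Esrp1_KO (SD, n = 4 each), with Esrp1_KO libraries from 47.8 to 115 (log2 fold change 2.30, limma adjusted p = 0.000135). Of its exons 15.04% lie under the antisense gene Tubgcp4. Rad1, of the clamp that activates ATR, fell from 6.24 ± 0.775 to 1.96 ± 0.785 FPKM, and Abraxas1, of the BRCA1-A complex, from 15.6 ± 0.73 to 7.08 ± 1.19 (SD, n = 4 each). Ppm1d, a phosphatase that ends the checkpoint, fell from 11.5 ± 1.78 to 5.90 ± 0.856 FPKM (SD, n = 4 each). A link between the RNA level of Trp53bp1 and that of Rnf168 was not tested.

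Of the other recombination genes, Dmc1, the meiotic recombinase, fell from 2.59 ± 0.391 to 1.37 ± 0.281 FPKM and the helicase gene Helq from 93.3 ± 6.67 to 70.01 ± 5.90, whereas Eme1, of a junction nuclease, rose from 2.18 ± 0.812 to 5.42 ± 2.56 (SD, n = 4 each). In the Fanconi pathway 1 of 14 was higher and 3 lower. Brip1, a helicase that binds BRCA1, fell from 52.5 ± 9.80 to 28.2 ± 4.15 FPKM, as did Wdr48 (11.2 ± 1.10 to 7.84 ± 0.369) and Cenpx (12.3 ± 4.87 to 6.25 ± 1.99), and Fancg, of the core, rose from 2.81 ± 0.986 to 5.33 ± 0.799 (SD, n = 4 each). Of 3 other mismatch repair genes Pms1 fell, from 16.9 ± 1.55 to 12.2 ± 1.09 FPKM (SD, n = 4 each), and none rose. Antisense genes cover 10.7% of the exons of Eme1 and 14.9% of those of Wdr48. The call of Eme1 was lost without WT replicate 2 (adjusted p = 0.0633) or 3 (0.0654) or Esrp1_KO replicate 4 (0.065), that of Cenpx without Esrp1_KO replicate 1 (0.0599) or 4 (0.0723), and that of Helq without WT replicate 4 (0.0617) or with median-ratio scaling (0.0706).

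In nucleotide excision repair 1 of 17 was higher and 3 lower. Cetn2, a centrin that binds XPC and also serves the centrosome, rose from 6.32 ± 1.07 to 32.9 ± 8.57 FPKM (log2 fold change 2.18, limma adjusted p = 5.9e-05). Ercc6 and Uvssa, which act where a lesion stalls transcription, fell from 2.59 ± 0.397 to 0.805 ± 0.243 FPKM and from 12.9 ± 2.49 to 7.09 ± 1.04, and Gtf2h3, of the factor that opens the DNA, from 3.14 ± 0.763 to 1.61 ± 0.299 (SD, n = 4 each). In base excision repair 2 of 12 were higher, Tdp2 (24.4 ± 2.55 to 43.2 ± 6.84 FPKM) and Apex2 (1.71 ± 0.278 to 3.17 ± 0.453), and 2 lower, the glycosylase genes Neil3 (214 ± 7.16 to 145 ± 19.8) and Mutyh (3.25 ± 0.272 to 2.24 ± 0.346; SD, n = 4 each). Mutyh lost its call with the replicate number as a block (adjusted p = 0.0525), with median-ratio scaling (0.0733) and without any of WT replicates 2, 3 and 4 and Esrp1_KO replicates 3 and 4 (0.0675 to 0.092).

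Around PCNA and translesion synthesis 3 of 17 were higher and 4 lower. Ube2a, the RAD18 partner that ubiquitinates PCNA, rose from 7.23 ± 1.29 to 17.3 ± 2.52 FPKM (SD, n = 4 each). Hltf, which extends that ubiquitin mark, fell from 7.44 ± 0.639 to 3.97 ± 1.004 FPKM, and Poli, another translesion polymerase gene, from 9.75 ± 1.51 to 5.66 ± 0.792, as Rev1 did (SD, n = 4 each). Pole4, of the leading-strand polymerase, was abundant and fell from 634 ± 30.2 to 469 ± 28.5 FPKM (SD, n = 4 each). Of the genes of direct reversal only Alkbh2 reached 1 FPKM, and it fell from 2.69 ± 0.119 to 0.885 ± 0.328 FPKM (SD, n = 4 each). Of its exons 29.5% lie under the antisense gene Usp30.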

How the data were processed

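The authors deposited FPKM per Ensembl gene for each library, per the file headers, on GRCm38, per the submitters' processing notes. Which aligner, counter and annotation they used is not given in the sources used here. Symbols and exon lengths came from GENCODE M21 (24812 of 24860 genes matched). FPKM times exon length gave whole reads, within 0.02 of a read, for 90.0% to 90.6% of values above 0, which gave the library totals and the reads behind a value. Reads were not recovered for Rnf8, Rif1, Ddb1 and Msh6. The test was limma 3.58.1 (R 4.3.3) with a trend on log2(FPKM + 1), genotype only, for genes averaging 1 FPKM or more, so fold changes of low genes are understated. Same-numbered libraries deviated together (correlations of 0.226 to 0.317 in all 4 pairs, although the highest of unlike numbers was 0.402), so the replicate number was tried as a block.

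The members, lists, pairs and motifs were chosen with earlier results of these data known. Every value is given for genes past the threshold and for those among the 8 highest by level. Atm, Atr, Chek2, Xrcc6, Parp1, Rpa2 and Pcna were added to these after their values were seen. Of the other repair genes, up to 4 per pathway with the smallest p are named, less 1 that is not reported here. The alternatives were another pseudocount, filter, scaling and variance model, the block, replicate pairs alone and each library left out, and, chosen after seeing the data, limma's voom on recovered reads.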

Additional observations from a re-analysis of the deposited data

Results flagged for a closer look

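In 140 groups of 4 libraries, from 70 named genes, 8 had a library far from the other 3, and chance alone flags about 1 in 20 groups. Rpa2 stood at 6.42 FPKM in WT replicate 1 against 1.44 to 1.80 in the other WT libraries. Rad51c was low in the same library, at 4.23 FPKM against 4.99 to 5.13. In WT replicate 2, Cenpx stood at 19.6 FPKM against 9.80 to 10.01 and Polb at 1.055 against 0.404 to 0.514. Fanca was at 0.0243 FPKM in WT replicate 3 against 0.342 to 0.385. In Esrp1_KO replicate 2, Parp1 stood at 2.52 FPKM against 1.46 to 1.602 and Rad1 at 3.12 against 1.47 to 1.74. Xrcc6 was at 4.35 FPKM in Esrp1_KO replicate 1 against 5.73 to 5.87 in the other Esrp1_KO libraries.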

How the results depend on the processing

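Of the 11 repair genes past the threshold, 6 (Lig4, Xrcc5, Rev1, Rnf168, Ddb1 and Xrcc1) passed with each library left out in turn, 1 (Lig4) passed in all alternatives, and 0 changed sign in any. For genes whose groups did not overlap, fits on fewer libraries could not turn the sign. The count of 11 was 7 without a filter on low levels, 4 with replicates 1 and 4 alone, 2 with replicates 2 and 3 alone, and 6 (without WT replicate 4) to 10 with a library left out. The 2961 genes past the threshold became 1664 with a minimum of 5 FPKM, where fewer were tested, 1448 with replicates 2 and 3 alone, and 2383 to 2866 with a library left out. The 37 other repair genes became 23 with that minimum, 23 with replicates 1 and 4 alone, 15 with replicates 2 and 3 alone, and 29 to 37 with a library left out. Some of these fits held fewer genes or libraries, and the cause of the changed counts was not tested. The median log2 fold change of the repair genes was -0.024 with median-ratio scaling, -0.00271 with quantile normalization, -0.0459 with replicates 2 and 3 alone, and -0.15 to -0.06 with a library left out.

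With the replicate number as a block, the pairing left 4 repair genes higher and 7 lower, and gave 14 and 28 other repair genes and 1376 and 2030 genes in all, and Mutyh (log2 fold change -0.39) was the only named gene whose call it changed. Of the 24 repair genes that did not pass, 6 passed in some alternative and 10 changed sign in some. None of the sign changes passed the threshold, and their cause was not tested. With median-ratio scaling the log2 fold change turned to 0.0515 for Rif1 and 0.0402 for Msh6. With quantile normalization it turned to 0.0408 for Mdc1, 0.0102 for Msh6 and 0.00373 for Rpa2. With a common total of nuclear genes it turned to -0.0221 for Xrcc6 and -0.0076 for Rpa3. With replicates 1 and 4 alone it was -0.0113 for Mre11a, -0.083 for Xrcc6, -0.00183 for Pms2, 0.0434 for Fanci, -0.168 for Rpa3 and -0.0342 for Pcna. With replicates 2 and 3 alone it was 0.0351 for Rif1, 0.00261 for Msh6 and 0.194 for Rpa2. With a library left out it ranged from -0.146 to 0.00338 for Msh6, -0.142 to 0.256 for Pcna, -0.195 to 0.0522 for Rif1, -0.272 to 0.263 (without WT replicate 1) for Rpa2, -0.14 to 0.233 for Rpa3 and -0.00113 to 0.1195 for Xrcc6. The 9 repair genes under 1 FPKM were left untested by the filter, and some rest on few reads (Ercc1 0 to 10, Chek2 8 to 164), others on more (Lig3 136 to 234).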
